A study of Mus musculus with 2 samples.

Results

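The cells described here are 2121 of 5887 hashtag-assigned skin cells: 1519 from Phgdh fl/fl mice 5 days post wounding (5 dpw) and 602 from unwounded Phgdh fl/fl mice. Barcodes needed 1000 or more gene UMIs, 500 or more genes and no more than 10% of UMIs from mitochondrial genes. A barcode was given to a condition when its top hashtag had at least 20 UMIs and 70% of the barcode's hashtag UMIs. All mice were Sox9-CreER;R26-LSL-YFP on C57B6/J and carried Phgdh fl/fl or, in the other genotype, Phgdh +/+, so a Sox9-driven CreER recombined the floxed alleles and switched on YFP in Sox9-expressing follicle cells and what descends from them. The labels give the sex as pooled male and female, and no age, drug schedule or number of animals is given. Sex calls from Xist and Y-linked genes found 0 female cells in both fl/fl pools, against 1381 male cells at 5 dpw and 262 in unwounded skin. A condition is 1 pool within 1 droplet capture, so there is no replicate. No test was run, and "higher" and "lower" describe these pools alone.

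The sorts differed between the pools. Both excluded cells with CD140a, CD117, CD31 or CD45 and kept YFP cells of high integrin-α6. The unwounded sort also required CD34 and CD200 and excluded SCA1, the product of Ly6a. The contrast of 5 dpw with unwounded cells therefore sets YFP lineage keratinocytes of high integrin-α6 from a wound against purified bulge cells. Wound and sort cannot be told apart in any value below.

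The bulge is the resting compartment of the hair follicle, held quiet by BMP signals and marked by CD34, LGR5 and keratin 15. After injury its cells can leave the niche, divide and supply keratinocytes to the new epidermis, and they then make stress keratins such as KRT6 and KRT16. PHGDH catalyses the first step of serine synthesis, PSAT1 and PSPH the next steps, and ATF4 is the transcription factor through which the integrated stress response switches on these enzymes, asparagine synthetase and amino acid transporters when amino acids run short. The series asks how that response bears on the fate of follicle stem cells when serine synthesis is lost.

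The 5 dpw pool held 76299151 UMIs (median 46053 UMIs and 5917 genes per cell) and the unwounded pool 4838928 UMIs (median 7341.5 UMIs and 2644.5 genes). Levels are UMIs per 1000000 UMIs of the pool (CPM). A count of 3 UMIs, the limit that 0 counts allow, is 0.0393 CPM at 5 dpw and 0.62 CPM in unwounded cells. All intervals are 95% intervals that cover counting error only, not differences between animals. Barcodes of low UMI content, taken as free RNA, would make up 0.51% of the UMIs at 5 dpw and 3.18% in unwounded cells. The expression and hashtag libraries share 1 list of barcodes, with 0 duplicates.

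A few unwounded cells stood apart. The 8 unwounded fl/fl cells of at least 20000 UMIs had between 23733 and 84253 UMIs, where the next cell had 17415, and they held 9.21% of the UMIs of their pool. Their summed level of 8 wound-edge markers was 14830 CPM, against 1353 CPM in the other 594 cells, and their bulge markers summed to 2495 CPM against 18950 CPM. Cycling markers stood at 668.5 CPM in the 8 cells and 42.3 CPM in the others. Folds that these cells moved by over 1.5 times are given with and without them. They were singled out after the data were seen, and 4 such cells held 9.91% of the UMIs of the unwounded +/+ pool.

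**Figure D1:**
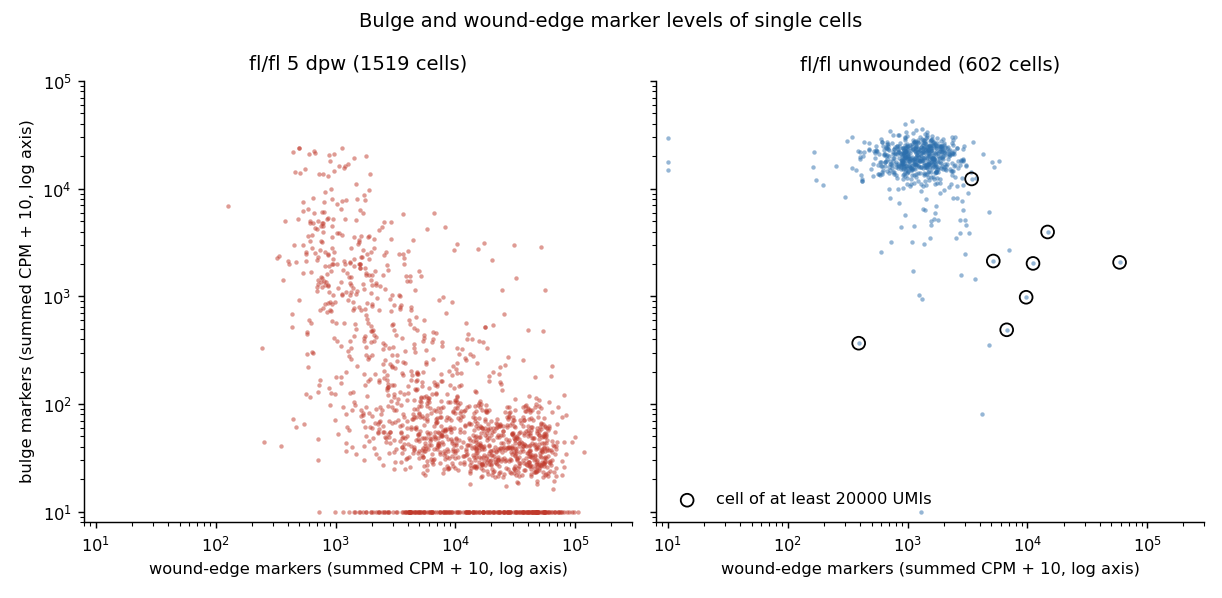
Each point is a cell, with the summed CPM of the wound-edge markers on the x axis and of the bulge markers on the y axis (both log axes, 10 added to each sum), for 1519 fl/fl 5 dpw cells on the left and 602 fl/fl unwounded cells on the right. The bulge sum has a median of 43.8 CPM at 5 dpw and 18870 CPM in unwounded cells, and the 8 circled deep unwounded cells together have a wound-edge sum of 14830 CPM and a bulge sum of 2495 CPM.

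Phgdh itself, the targeted gene (ENSMUSG00000053398, chromosome 3 from 98313171 to 98339969, GRCm38.p6), was the first check of the labels. Its level at 5 dpw was 21.4 CPM (20.4 to 22.4) in fl/fl and 136 CPM in +/+ cells, and its unwounded level was 19.0 CPM (15.3 to 23.3) in fl/fl and 59.6 CPM in +/+ cells. Both fl/fl pools were below both +/+ pools. Single cells weighed on the unwounded fl/fl value: 1 cell held 25% of its 92 Phgdh UMIs, and without the 8 deep cells the level was 10.5 CPM. The log2 fold of fl/fl 5 dpw over fl/fl unwounded was 0.17 (-0.13 to 0.49), and 1.03 (0.61 to 1.49) without those cells. The floxed exons are not named in the labels, so UMIs that remain at the 3′ end of the gene give no share of undeleted cells.

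Over the pair of pools 8510 genes averaged 10 CPM or more, of which 1041 were at least 2-fold higher at 5 dpw (12.2%) and 2095 at least 2-fold lower (24.6%). The extreme folds lay on the low side, with 338 genes (3.97%) at least 10-fold lower and 44 genes (0.517%) at least 10-fold higher. The median log2 fold of all genes was -0.21. A value in parentheses after a gene or a pair of levels is the log2 fold of 5 dpw over unwounded, with its interval where given. These percentages are the background for the counts that follow. From here, a listed gene or marker said to be above or below 10 CPM is so by its mean over the 2 pools. A gene below that mean can still exceed 10 CPM in 1 pool. TMM factors raise log2 folds by a median of 0.57 and turn the split to 2226 higher (26.6%) and 1116 lower (13.3%), so modest folds are read against that shift. A listed gene that passed the 10 CPM mean through its level in 1 pool had to differ between pools, so the counts over such genes are descriptions only. Some genes stand in more than 1 list (19 of 504).

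Genes of bulge identity made up the clearest group below the unwounded level. Of 28 listed genes 26 passed 10 CPM, and 25 of them were at least 2-fold lower at 5 dpw and 0 were higher. The median log2 fold was -4.52, and -4.63 without the 8 deep unwounded cells. Below 10 CPM stood Tgfb2 and Wif1. Runx1 was the exception within 2-fold, at 102 CPM in 5 dpw cells and 151 CPM in unwounded cells (-0.57).

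Cd34, a surface glycoprotein of bulge cells, stood at 4.21 CPM (3.76 to 4.69) in 5 dpw cells, against 523 CPM (503 to 544) in unwounded cells, a log2 fold of -6.96 (-7.13 to -6.79). Lgr5, the R-spondin receptor of cycling and primed follicle stem cells (ENSMUSG00000020140, chromosome 10 from 115450314 to 115587780), had 6.30 CPM (5.75 to 6.89) in 5 dpw cells and 553 CPM (532 to 574) in unwounded cells (-6.46, -6.60 to -6.31). The keratin gene Krt24 had 3.62 CPM in 5 dpw cells and 476 CPM in unwounded cells (-7.04, -7.22 to -6.86). Unwounded cells were selected on CD34 protein, but Lgr5, Krt24 and Krt15 were not gated. Krt15, the classical bulge keratin, had 254 CPM in 5 dpw cells and 14000 CPM in unwounded cells (-5.78, -5.81 to -5.76). Cd200, which was gated, had 5.23 CPM in 5 dpw cells and 138.5 CPM in unwounded cells (-4.73). Igfbp5, a secreted binder of insulin-like growth factors, had 0.69 CPM in 5 dpw cells, of which 1 cell gave 47.2% of the UMIs, and 58.7 CPM in unwounded cells (-6.40). The transcription factor genes of the list differed by widely unequal amounts: Lhx2 had a log2 fold of -6.29 and Nfatc1, a factor of bulge quiescence, one of -3.37. Sox9, whose promoter drives the CreER and which specifies the follicle lineage, had 50.9 CPM (49.4 to 52.6) in 5 dpw cells and 188 CPM (176 to 201) in unwounded cells (-1.88, -1.99 to -1.78). Sox9 was thus among the bulge genes with the smallest folds.

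Few 5 dpw cells reached the unwounded level one by one. With each cell thinned to 3000 UMIs (13 cells left out at 5 dpw and 14 in unwounded cells), a Cd34 UMI was seen in 30 of 1506 cells at 5 dpw (1.99%, 1.35 to 2.83) and in 456 of 588 unwounded cells (77.6%, 74.0 to 80.9). Without thinning the shares were 11.6% and 91.5%, at medians of 46053 UMIs at 5 dpw and 7341.5 UMIs in unwounded cells. Keratinocytes of the Flg-led cluster, where Cd34 should be lacking, gave 2 of 152 cells (1.32%, 0.16 to 4.67) after thinning. That count is too small to tell the thinned share at 5 dpw from background. Without thinning this cluster gave 5.92% at a median of 56455.5 UMIs, against the 11.6% of the whole 5 dpw pool. Krt15 differed from its background: 24.1% of thinned 5 dpw cells had a UMI, 7.24% (3.67 to 12.6) of the Flg-led cluster and 98.0% of unwounded cells. The summed bulge markers reached 11200 CPM, the 10th percentile of unwounded cells other than the 8 deep ones, in 24 of 1519 5 dpw cells (1.58%, 1.01 to 2.34). These 24 cells had a median of 11360.5 UMIs and held 20.2% of the Cd34 UMIs of the 5 dpw pool. Their top hashtag took a median of 92.8% of their hashtag UMIs.

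Genes of BMP signalling and quiescence were lower at 5 dpw in 12 of 16 members above 10 CPM, with 0 higher and a median of -2.62. The ID proteins are direct BMP targets that restrain differentiation, and their genes were not equally affected. Id4 had 1.82 CPM in 5 dpw cells and 94.7 CPM in unwounded cells (-5.70, -5.98 to -5.42), Id2 had 6.87 and 334 CPM (-5.60, -5.75 to -5.46), and Id1 had 157 and 341 CPM (-1.11). Txnip, which blocks glucose uptake and thioredoxin, had 11.8 CPM in 5 dpw cells and 498 CPM in unwounded cells (-5.40, -5.51 to -5.29). Prlr, the prolactin receptor that holds follicles at rest, had 16.2 and 438 CPM in 5 dpw and unwounded cells (-4.75). Receptors and SMADs of the pathway differed far less, with Bmpr1a at -0.87, Bmpr2 at -0.59, Smad1 at -0.77 and Smad5 at -1.37. Smad6, Bmp6 and Cdkn1c averaged below 10 CPM.

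The WNT and hedgehog genes were lower in 9 of the 9 members above 10 CPM (median -2.82), while the other 9 of the 18 listed, among them Lef1, Sp5, Nkd1, Nkd2, Wif1, Rspo1, Gli1 and Hhip, were below it. Receptors and secreted inhibitors led. The frizzled receptor gene Fzd2 had 7.35 CPM in 5 dpw cells and 272 CPM in unwounded cells (-5.21, -5.36 to -5.07) and Fzd7 had 5.28 and 56.2 CPM (-3.41). The inhibitors Dkk3 (8.24 CPM at 5 dpw, 242 CPM unwounded, -4.88) and Sfrp1 (26.7 and 443 CPM, -4.05) were lower too. The feedback targets Axin2 (-1.63) and Ptch1 (-1.84) had the smallest folds of the group.

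Adhesion to the basement membrane split by component. Of 17 members above 10 CPM, 8 were at least 2-fold lower and 0 higher (median -0.97, and -0.40 with TMM factors), and Fras1 was below 10 CPM. The matrix proteins of the bulge niche led: Npnt, the nephronectin that anchors the arrector pili muscle, had 2.254 CPM in 5 dpw cells and 117 CPM in unwounded cells (-5.70), and Frem2 had 4.05 and 50.2 CPM (-3.63). The hemidesmosome genes Dst (155 CPM at 5 dpw and 1193 CPM unwounded, -2.95, -2.99 to -2.90) and Col17a1 (320 and 1494 CPM, -2.22, -2.26 to -2.18) followed. Itga6, whose protein was gated high in both sorts, had 302.5 and 200.5 CPM in 5 dpw and unwounded cells (0.59).

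**Figure D2:**
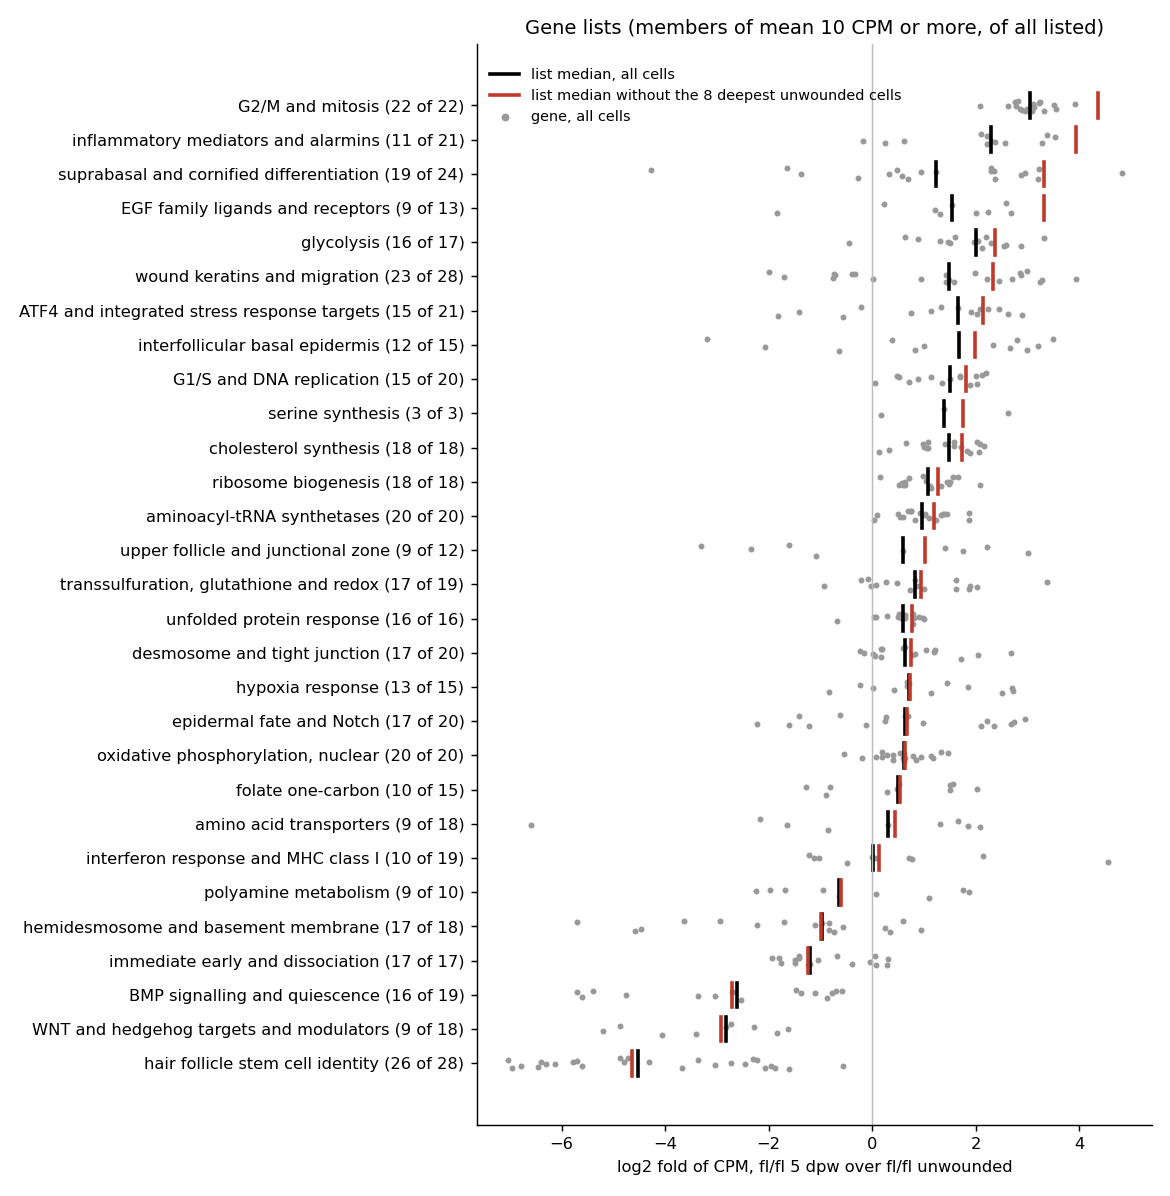
Log2 fold of CPM, fl/fl 5 dpw over fl/fl unwounded (x axis), of the members with a mean of at least 10 CPM in each of 29 gene lists (rows). Grey points are genes, black bars the list medians and red bars the medians without the 8 deep unwounded cells. Bulge, WNT and hedgehog, and BMP lists lie at the low end with medians of -4.52, -2.82 and -2.62, and the G2/M list lies at the high end with 3.05.

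Genes of the epidermis between follicles were higher in part at 5 dpw, and general basal markers were mostly not. Of the 7 basal keratinocyte markers 1 was at least 2-fold higher (Krt14) and 4 lower (Col17a1, Itgb4, Trp63 and Thbs1), with a median of -1.10, and -1.15 without the deep cells. Of 12 interfollicular genes above 10 CPM, 6 were at least 2-fold higher and 2 lower (median 1.67, 1.98 without the deep cells), and Krt19, Krt8 and Krt18 were below 10 CPM. Fabp5, a fatty acid carrier of activated keratinocytes (ENSMUSG00000027533, chromosome 3 from 10012585 to 10016610), had 26270 CPM in 5 dpw cells and 2328 CPM in unwounded cells (3.50, 3.47 to 3.52). The 5 highest unwounded cells held 67.8% of that gene's unwounded UMIs, and without the 8 deep cells its fold was 5.02. Krt14, the basal keratin, had 29660 CPM in 5 dpw cells and 4701 CPM in unwounded cells (2.66, 2.64 to 2.68). Ly6d, a surface protein of differentiating epidermis, had 5149 and 558.6 CPM in 5 dpw and unwounded cells (3.21, 4.57 without the deep cells). Ly6a had 303.5 CPM in 5 dpw cells and 38.0 CPM in unwounded cells (3.00, 2.79 to 3.21, and 4.01 without the deep cells), and it encodes the SCA1 that only the unwounded sort excluded. Cav1, which coats caveolae, was the member furthest on the low side, at 45.9 CPM in 5 dpw cells and 418.5 CPM in unwounded cells (-3.19).

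The wound keratin and migration list had 14 of 23 members at least 2-fold higher and 2 lower (median 1.48). Without the deep unwounded cells the counts were 16 and 2 (median 2.33), beside 14.2% and 26.5% of all genes. Krt16 (ENSMUSG00000053797, chromosome 11 from 100246091 to 100248902) had 11290 CPM in 5 dpw cells and 1159 CPM in unwounded cells (3.28, 3.25 to 3.32). Its partners Krt6a (7438 and 1017 CPM, 2.87, 2.83 to 2.91) and Krt6b (3537 and 374 CPM, 3.24, 3.17 to 3.31) stood alike. Fscn1, which bundles actin in filopodia, had 85.6 CPM in 5 dpw cells and 10.8 CPM in unwounded cells (2.99). Without the deep unwounded cells Krt16 came to 4.44, Krt6a to 3.58, Krt6b to 4.30 and Fscn1 to 3.85. The list was not uniform. Integrin genes Itga2 (-1.99), Itgav (-0.74) and Itgb6 (-0.72) were lower and Itga5 differed little (0.01), whereas the collagenase gene Mmp13 had 28.6 CPM in 5 dpw cells and 1.86 CPM in unwounded cells (3.94, 3.02 to 5.07), with 32.3% of its 5 dpw UMIs from 1 cell. Fn1, Plat, Mmp1b, Mmp3 and Inhba averaged below 10 CPM. The letters TGANTCA of an AP-1 site were in 5 of the 16 promoters found for this list (31.2%, against 8.97% of all genes) and in 0 of 21 for the bulge list.

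Differentiation genes depended most on the 8 deep unwounded cells. Of 19 suprabasal and cornified members above 10 CPM, 10 were at least 2-fold higher and 3 lower with all cells (median 1.23), and 16 and 0 without the deep cells (median 3.32). Krt1, the first keratin of the spinous layer, had 2269 CPM in 5 dpw cells and 246 CPM in unwounded cells (3.21, 3.12 to 3.29). Calm4, a calcium-binding protein of that layer, had 722 and 77.5 CPM in 5 dpw and unwounded cells (3.22). Sprr2a3, a cross-linked envelope protein, had the highest fold of the named genes, with 209.8 CPM in 5 dpw cells and 7.44 CPM in unwounded cells (4.82, 4.35 to 5.33). Krt1 and Calm4 came to 4.05 and 4.08 without the deep cells. The keratin gene Krt77, made in sweat duct and suprabasal epidermis, showed the weight of 1 cell: it had 3.42 CPM at 5 dpw and 66.5 CPM in unwounded cells (-4.28), but a single cell held 90.7% of its unwounded UMIs and the fold without the deep cells was 0.00 (-0.75 to 0.86). Likewise Sprr1a, at 387 CPM in 5 dpw cells and 239.7 CPM in unwounded cells (0.69), had 3.32 without them. The late granular genes Lor, Flg, Flg2, Ivl and Lce1a2 averaged below 10 CPM over the 2 pools. Flg was concentrated, with 98.2 CPM in the Flg-led cluster and 0.75 CPM in the other 5 dpw cells.

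Inflammatory mediators were at least 2-fold higher in 8 of 11 members above 10 CPM and lower in 0 (median 2.29, 3.93 without the deep cells). Il33, an alarmin stored in nuclei, had 92.5 CPM in 5 dpw cells and 9.51 CPM in unwounded cells (3.28, 2.87 to 3.73). Defb1, an antimicrobial peptide, had 103 and 9.92 CPM in 5 dpw and unwounded cells (3.38). Il24, a cytokine of wound-edge keratinocytes, had 63.7 and 13.0 CPM (2.29), and Slpi, a protease inhibitor, 106 and 20.7 CPM (2.37). Without the deep cells Defb1 came to 4.07, Il24 to 3.00 and Slpi to 3.55. S100a8 and S100a9, the calprotectin subunits, had 155 and 239 CPM in 5 dpw cells and 102 and 202 CPM in unwounded cells. In unwounded cells 1 cell held 89.6% of the S100a8 and 93.4% of the S100a9 UMIs, and without the deep cells the folds were 3.95 and 4.15, against 0.60 and 0.24 with them. Neutrophils make both genes too: the other neutrophil markers Csf3r, Cxcr2, Ly6g and Retnlg were below 10 CPM, and the part of neutrophils in these values was not tested. Il1a, Il1b, Cxcl2, Cxcl3, Ccl20, Lcn2, Csf2, Tslp and Defb3 averaged below 10 CPM over the 2 pools, and Il36a could not be matched. Tslp had 59.4 CPM in the Flg-led cluster and 3.96 CPM in the other 5 dpw cells.

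EGF family genes were mostly higher, with Egfr as the 1 member on the low side. Areg (426 CPM at 5 dpw and 71.5 CPM unwounded, 2.57, 4.55 without the deep cells), Ereg (84.2 and 13.2 CPM, 2.67, 4.44), Epgn (176 and 37.4 CPM, 2.23, 4.07) and Nrg1 (354 and 88.9 CPM, 1.99, 4.56) are growth factors that act on neighbouring keratinocytes. All 4 were higher. The receptor gene Egfr had 158.5 CPM in 5 dpw cells and 568 CPM in unwounded cells (-1.84), while the receptor genes Erbb2 and Erbb3 stood at 0.23 and 1.31. In all, 7 of 9 members above 10 CPM were at least 2-fold higher and 1 lower, and Btc, Egf, Nrg4 and Erbb4 were below 10 CPM.

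**Figure D3:**
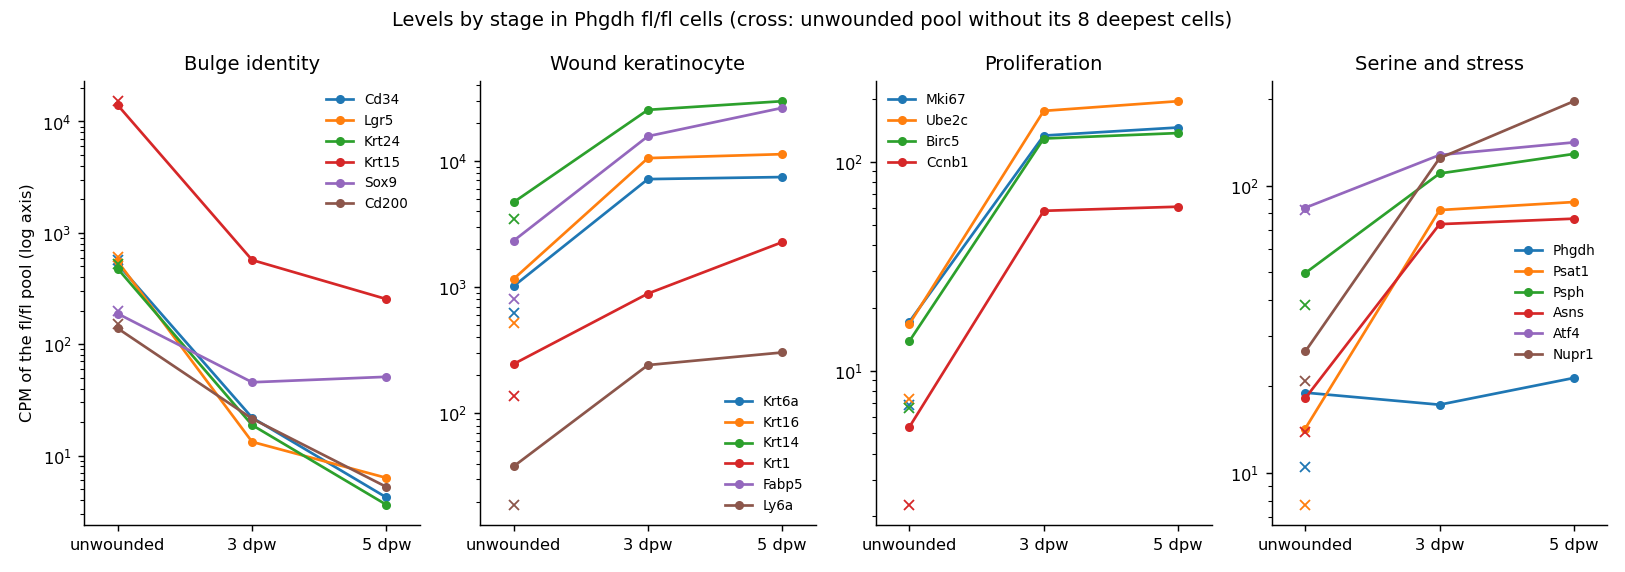
CPM (log axis) of selected genes in fl/fl cells that were unwounded, 3 dpw and 5 dpw, joined by lines, in 4 panels by role. Crosses mark the unwounded level without the 8 deep cells. Cd34 runs 523, 21.9 and 4.21 CPM over the stages, Krt16 1159, 10510 and 11290 CPM, and Phgdh 19.0, 17.3 and 21.4 CPM.

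Cell cycle genes were higher, mitotic ones most. All 22 G2/M genes were at least 2-fold higher at 5 dpw (median 3.05, 4.36 without the deep cells), against 12.2% of all genes. Mki67, the proliferation antigen, had 146 CPM (143 to 149) in 5 dpw cells and 17.2 CPM (13.7 to 21.3) in unwounded cells, a log2 fold of 3.09 (2.78 to 3.42), and 4.42 without the deep cells. Ube2c, the ubiquitin-conjugating enzyme of the anaphase-promoting complex, had 195 CPM in 5 dpw cells and 16.7 CPM in unwounded cells (3.54, 3.23 to 3.88). Its activator Cdc20 had 90.3 and 9.71 CPM in 5 dpw and unwounded cells (3.22). Ccnb1, the mitotic cyclin, had 60.9 and 5.37 CPM (3.50), and Birc5 and Cdca8, of the chromosomal passenger complex, had folds of 3.31 and 3.42. Replication genes were less far apart: 10 of 15 were at least 2-fold higher and 0 lower (median 1.51), with Mcm5 at 40.4 and 9.30 CPM in 5 dpw and unwounded cells (2.12), Mcm3 (2.03), and the ribonucleotide reductase genes Rrm1 (1.70) and Rrm2 (2.01). Without the deep cells the folds were 4.74 for Ube2c, 3.93 for Cdc20, 4.74 for Ccnb1, 4.38 for Birc5, 4.4 for Cdca8, 2.77 for Mcm5 and 2.70 for Mcm3. Cdc6, Cdt1, Ung, Ccne1 and Ccne2 were below 10 CPM.

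Mitotic genes are known to share promoter elements, and RefSeq promoters of the GRCm38.p6 assembly (250 bases before to 50 after a gene's start) were searched on both strands for the CHR element TTTGAA and the CCAAT box. Of 22 G2/M genes 19 had a promoter in the table, of which 14 held TTTGAA (73.7%, against 20.2% of all 27025 genes), 16 held CCAAT (84.2%, against 41.1%) and 13 held both (68.4%, against 7.97%). A match is a description of letters and not of a site in use. The 2 motifs can share bases, which they did in 47 of 32851 promoters. A pair that held both is printed to show them, with matches in capitals (TTCAAA and ATTGG are the same motifs on the other strand). Both were chosen after values and matches were seen. Ube2c lies at chr2:164769679-164769978 (plus strand), with the CHR match starting 29 bases before the start, and Cdc20 at chr4:118437294-118437593 (minus strand), with it 18 bases before.
Ube2c: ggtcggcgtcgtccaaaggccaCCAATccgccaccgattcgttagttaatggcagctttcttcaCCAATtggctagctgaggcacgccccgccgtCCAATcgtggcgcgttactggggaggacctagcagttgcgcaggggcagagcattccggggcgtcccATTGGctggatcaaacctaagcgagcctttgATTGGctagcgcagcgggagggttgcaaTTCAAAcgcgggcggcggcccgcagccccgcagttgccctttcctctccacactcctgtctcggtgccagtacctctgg
Cdc20: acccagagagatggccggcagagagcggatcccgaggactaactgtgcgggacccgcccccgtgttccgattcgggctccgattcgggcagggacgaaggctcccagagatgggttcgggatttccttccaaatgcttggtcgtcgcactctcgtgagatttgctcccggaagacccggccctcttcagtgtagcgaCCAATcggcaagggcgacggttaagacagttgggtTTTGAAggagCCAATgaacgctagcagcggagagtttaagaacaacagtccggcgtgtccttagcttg

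Serine synthesis beyond the deleted step was higher at 5 dpw. Psat1, the aminotransferase that follows PHGDH (ENSMUSG00000024640, chromosome 19 from 15905123 to 15925059), had 87.7 CPM (85.6 to 89.8) in 5 dpw cells and 14.3 CPM (11.1 to 18.1) in unwounded cells, a log2 fold of 2.62 (2.28 to 2.98). Psph, the phosphatase of the last step, had 129 CPM (126 to 132) in 5 dpw cells and 49.6 CPM (43.5 to 56.3) in unwounded cells (1.38, 1.19 to 1.57). Without the deep cells the folds of Psat1 and Psph were 3.50 and 1.75, and that of Mthfd2 was 2.87. Folate genes that take up serine carbon were mixed, with 4 of 10 at least 2-fold higher and 1 lower (median 0.50). The mitochondrial enzymes led the high side, with Shmt2 at 57.2 CPM in 5 dpw cells and 20.3 CPM in unwounded cells (log2 fold interval 1.21 to 1.80) and Mthfd2 at 25.03 and 6.2 CPM (2.01). Tyms, which makes thymidylate, had 49.97 and 17.6 CPM in 5 dpw and unwounded cells (1.51), and Mthfd2l, the paralogue of Mthfd2, 29.6 and 21.3 CPM (0.47). The cytosolic Mthfd1 had 15.7 and 29.1 CPM (-0.90, -1.15 to -0.63). Members below 10 CPM included Aldh1l1, Aldh1l2, Gldc and Amt.

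Targets of the integrated stress response were higher as a group but not throughout. Of 15 members above 10 CPM 10 were at least 2-fold higher and 2 lower (median 1.65, 2.14 without the deep cells). The summed level of the 21 listed genes hardly differed, at 1774 CPM in 5 dpw cells and 1741 CPM in unwounded cells. Nupr1, a stress-induced chromatin protein, had 197 CPM (194 to 200) in 5 dpw cells and 26.5 CPM (22.1 to 31.5) in unwounded cells, a log2 fold of 2.89 (2.64 to 3.16). Asns, asparagine synthetase, had 76.7 CPM (74.8 to 78.7) in 5 dpw cells and 18.2 CPM (14.6 to 22.4) in unwounded cells (2.08, 1.77 to 2.40). Eif4ebp1, the translation repressor that ATF4 induces, had 170 and 35.96 CPM in 5 dpw and unwounded cells (2.24, 2.02 to 2.46). Atf4 mRNA itself had 141 CPM in 5 dpw cells and 83.7 CPM in unwounded cells (0.76, 0.61 to 0.90), which with TMM factors would be shifted up like all folds. The other side of the list held 4 members, of which the lowest, at -1.83, is not named here. Ddit3, the CHOP factor of prolonged stress, had 10.98 CPM in 5 dpw cells and 16.3 CPM in unwounded cells (-0.57, -0.91 to -0.22). Ppp1r15a stood at -0.22 and Atf3 at -1.42. Atf3 is also an immediate early gene. Psat1 and Mthfd2 are members of this list as well as of the metabolic ones. Chac1, Stc2, Fgf21, Gdf15, Slc7a11 and Aldh1l2 were below 10 CPM.

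The letters TGATGNAA of the CARE element, which ATF4 dimers bind, were present in 8 of 19 promoters found for the 21 listed targets (42.1%) and in 4.51% of all genes. A pair with a match is printed, chosen after values and matches were seen, with the match in capitals. Asns lies at chr6:7693160-7693459 (minus strand, match starting 23 bases before the start) and Nupr1 at chr7:126625421-126625720 (minus strand, match on the other strand, starting 110 bases before). No match was found in the Psat1 windows.
Asns: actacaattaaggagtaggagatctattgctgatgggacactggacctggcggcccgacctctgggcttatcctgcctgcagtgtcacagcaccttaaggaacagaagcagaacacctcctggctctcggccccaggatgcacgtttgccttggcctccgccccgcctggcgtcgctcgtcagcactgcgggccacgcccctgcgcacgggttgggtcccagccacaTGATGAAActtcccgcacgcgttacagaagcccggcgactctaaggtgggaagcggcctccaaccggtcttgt
Nupr1: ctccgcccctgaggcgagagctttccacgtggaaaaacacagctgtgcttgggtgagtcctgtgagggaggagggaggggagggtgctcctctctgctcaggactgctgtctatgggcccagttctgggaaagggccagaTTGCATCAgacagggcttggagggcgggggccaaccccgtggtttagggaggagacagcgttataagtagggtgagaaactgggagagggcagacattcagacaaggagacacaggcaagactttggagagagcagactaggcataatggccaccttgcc

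Amino acid transporters did not go one way. Of 9 members above 10 CPM 4 were at least 2-fold higher and 3 lower. Their log2 folds ran from -6.595, in a member not named here, to 2.09 (median 0.31). The arginine transporter Slc7a1 (61.6 CPM at 5 dpw and 14.5 CPM unwounded, 2.09) and the large neutral transporter Slc7a5 (37.3 and 11.8 CPM, 1.66) were higher. Slc38a2, the glutamine and serine carrier SNAT2, had 266 CPM in 5 dpw cells and 836.5 CPM in unwounded cells (-1.65, -1.70 to -1.60), and the lysosomal Slc38a9 11.9 and 53.3 CPM (-2.16). Slc1a4, Slc1a5, Slc1a3, Slc6a9, Slc7a11, Slc7a3, Slc7a8, Slc36a1 and Slc38a1 were below 10 CPM. Aminoacyl-tRNA synthetases charge tRNAs and several are ATF4 targets. Of the 20, 10 were at least 2-fold higher and 0 lower (median 0.97), with Gars at 108 and 29.8 CPM in 5 dpw and unwounded cells (1.86, 1.62 to 2.11), Rars at 106 and 39.1 CPM (1.45), Vars at 1.38 and Hars at 1.37. Redox genes had 7 of 17 higher and 0 lower (median 0.82). Gsta4, a glutathione transferase that clears lipid aldehydes, led with 393 CPM in 5 dpw cells and 37.8 CPM in unwounded cells (3.38, 3.17 to 3.60), followed by Hmox1 (1.88) and Gsto1 (1.62). Without the deep cells Slc7a1 came to 2.72, Gsta4 to 4.54 and Hmox1 to 2.59. Cbs and Slc7a11 were below 10 CPM.

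Energy and biosynthesis genes gave some of the broader shifts. Of 16 glycolysis genes above 10 CPM, 13 were at least 2-fold higher and 0 lower (median 1.997), and Pfkm was below. Slc16a3, the lactate exporter MCT4, had 65.6 CPM (63.8 to 67.4) in 5 dpw cells and 6.61 CPM (4.52 to 9.34) in unwounded cells (3.31, 2.81 to 3.86). Eno1 had 428.5 and 58.3 CPM in 5 dpw and unwounded cells (2.88), Pgk1 489 and 81.6 CPM (2.58) and Slc16a1, the other lactate carrier, 38.3 and 6.61 CPM (2.54). Hypoxia genes had 6 of 13 higher and 0 lower (median 0.71), with Egln3 at 95.2 CPM in 5 dpw cells and 14.5 CPM in unwounded cells (2.72), Vegfa at 53.0 and 9.30 CPM (2.51), Hif1a at 1.45 and Ddit4 at 1.14, while Pdk1 stood at -0.24. Car9 and P4ha2 were below 10 CPM. Cholesterol synthesis had 13 of 18 higher and 0 lower (median 1.49), with Hsd17b7 at 2.06, Sqle at 2.03 and Cyp51 at 1.89. Without the deep unwounded cells Slc16a3 came to 4.26, Eno1 to 3.52, Pgk1 to 3.204, Slc16a1 to 3.59, Hsd17b7 to 2.69, Sqle to 2.74 and Cyp51 to 2.55.

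Ribosome biogenesis had 10 of 18 higher and 0 lower (median 1.08), with Nhp2 at 329 and 78.3 CPM in 5 dpw and unwounded cells (2.07), Nop56 (1.65), Nolc1 (1.55) and Ddx21 (198 and 69.9 CPM). Nuclear genes of oxidative phosphorylation were closer to the unwounded level, with 4 of 20 higher and 0 lower (median 0.61), among them Cox5a (1.47), Ndufa4 (1.33), Atp5g1 (1.16) and Uqcrfs1 (1.13). The unfolded protein response had 1 of 16 higher with all cells, 5 of 16 without the deep unwounded cells and 0 lower in either, beside 12.2% and 14.2% of all genes at least 2-fold higher. Manf (179 CPM in 5 dpw cells and 89.3 CPM in unwounded cells), Pdia4 (0.98), Herpud1 (0.80) and Calr (0.78) had its largest folds among the named members. The median of that list was 0.59, about the size of the TMM shift, and 0.77 without the deep cells. Polyamine genes split 3 to 3 of 9, with the synthases apart: Srm, for spermidine, had 99.9 and 27.3 CPM in 5 dpw and unwounded cells (1.87), and Sms, for spermine, had 14.02 and 55.4 CPM (-1.98). The oxidase Smox stood at 1.75 and the antizyme Oaz2 at -2.24, with Paox below 10 CPM. Without the deep cells Herpud1 came to 1.44 and Smox to 3.23.

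Immediate early genes, which tissue dissociation also induces, were at least 2-fold lower in 10 of 17 members and higher in 0 (median -1.19). Fosb had 370 CPM in 5 dpw cells and 1421 CPM in unwounded cells (-1.94, -1.98 to -1.90), Btg2 364 and 1269 CPM (-1.80), Jund 352 and 1190 CPM (-1.76) and Jun 775.5 and 2182 CPM (-1.49). With TMM factors 3 of the 17 were at least 2-fold lower and the median was -0.63. The part of handling in this group was not tested. Interferon and MHC class I genes had 2 of 10 higher and 3 lower (median 0.02). Their log2 folds ran from -1.22 to 4.54, the highest in a member not named here. Irf1 had 58.3 CPM in 5 dpw cells and 13.2 CPM in unwounded cells (2.14), B2m had 97.3 and 198 CPM (-1.02), and Ifitm3 (0.77) lay within 2-fold. Irf7, Isg15, Ifit1, Ifit2, Ifit3, Oasl1, Cxcl9, Psmb9 and Bst2 were below 10 CPM.

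Regulators of epidermal fate were divided, with 6 of 17 higher and 4 lower (median 0.64). Factors of the differentiating layers were on the high side. Zfp750 had 139 CPM in 5 dpw cells and 17.98 CPM in unwounded cells (2.95, 2.64 to 3.27), Ovol1 112 and 16.7 CPM (2.74), Notch3 35.7 and 5.58 CPM (2.68) and Grhl3 33.6 and 6.61 CPM (2.35). Without the deep cells Zfp750 came to 4.21, Ovol1 to 4.36 and Grhl3 to 4.21. Trp63, the master factor of stratified epithelia, was on the low side at 213 CPM in 5 dpw cells and 651 CPM in unwounded cells (-1.61), with the Notch ligand genes Jag2 (-2.23) and Jag1 (-1.22). Hey1, Hey2 and Ovol2 were below 10 CPM. Junction genes had 6 of 17 higher and 0 lower (median 0.64), with Dsc2 at 2.67 (3.77 without the deep cells), Pkp1 at 2.04 and Dsg1a at 1.21, and Pkp2, Cldn7 and Ocln below 10 CPM. Upper follicle genes split 4 to 4 of 9. Krt17, a keratin of the follicle and of wounded skin, had 1925 and 416 CPM in 5 dpw and unwounded cells (2.21). The stem cell receptor Lgr6 had 5.41 and 53.9 CPM (-3.32), and Defb6 had 26.3 and 134 CPM (-2.35), with 40.0% of the unwounded Defb6 UMIs in 1 cell. Gata6, Atp6v1c2 and Krt75 were below 10 CPM.

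The genes furthest from the unwounded level were taken among those averaging 50 CPM or more. At the low end stood Myoc, the secreted glycoprotein myocilin, with 0.24 CPM (0.14 to 0.37) in 5 dpw cells and 127 CPM (117 to 137) in unwounded cells, a log2 fold of -9.07 (-9.84 to -8.40). Of its 18 UMIs at 5 dpw, 33.3% came from 1 cell. Cck, a peptide hormone gene, had 0.26 and 112 CPM in 5 dpw and unwounded cells (-8.73). Ccn2, the matricellular target of TGF-β and YAP (ENSMUSG00000019997, chromosome 10 from 24595442 to 24598683), had 5.41 CPM (4.90 to 5.96) in 5 dpw cells and 1378 CPM (1345 to 1411) in unwounded cells (-7.99, -8.14 to -7.85). It was the most abundant unwounded transcript of these. St6galnac5 (-8.14), Chat, which makes acetylcholine (-7.97), the collagen gene Col8a2 (-7.92), Angptl7 (-7.81), Fam171b (-7.80), Wfdc3 (-7.66), the TGF-β binder Ltbp2 (-7.61), the BMP antagonist Grem1 (-7.56) and Pdzrn4 (-7.26) completed the 12. Outside that rule, and chosen after its values were seen, Mitf had 9.86 CPM in 5 dpw cells and 501 CPM in unwounded cells (-5.67). Mitf is a melanocyte factor, and the other 5 melanocyte markers, Dct, Tyrp1, Pmel, Mlana and Kit, were below 10 CPM.

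At the high end stood, after Sprr2a3, the retinol carrier Rbp2 (217 CPM at 5 dpw and 14.7 CPM unwounded, 3.89, 3.55 to 4.25), the tissue factor gene F3, which starts coagulation (141 and 9.71 CPM, 3.86, 3.44 to 4.30), and the protease inhibitor Stfa2 (98.1 and 6.82 CPM, 3.85). Ctsc, the cathepsin that activates serine proteases, had 357 CPM in 5 dpw cells and 30.4 CPM in unwounded cells (3.56). The metallothionein gene Mt4 (252 and 22.3 CPM, 3.50) had 70.4% of its unwounded UMIs in 1 cell. The tubulin gene Tubb6 (164 and 16.1 CPM, 3.35) closed the 12, which also held Ube2c, Fabp5, Cdca8, Defb1 and Gsta4. Without the 8 deep unwounded cells these 12 folds ran from 4.07 for Defb1 to 5.39 for Sprr2a3.

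Markers of other cell types were low. Summed fibroblast markers stood at 0.60 CPM in 5 dpw cells and 32.2 CPM in unwounded cells, endothelial markers at 1.84 and 3.10 CPM, Merkel markers at 0.45 and 1.45 CPM, Schwann markers at 2.48 and 5.37 CPM, and macrophage or Langerhans markers at 0.87 and 2.89 CPM. Of the 6 fibroblast markers 5 (Col1a1, Col3a1, Dcn, Lum and Pdgfra) were below 10 CPM. Of the T cell markers Trbc2 alone passed 10 CPM (102 CPM in 5 dpw cells and 14.9 CPM in unwounded cells), while 3 of the 6 were at 0 in 5 dpw cells and 4 in unwounded cells. Acta2, the 1 pericyte marker above 10 CPM, had 22.8 and 2.48 CPM in 5 dpw and unwounded cells. Sebocyte markers summed to 274 and 232.5 CPM, and hair matrix markers to 60.4 and 26.0 CPM, of which Krt85 could not be matched.

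The 5 dpw pool was a mixture, and clustering its 1519 cells gave 8 clusters, which were formed on the same genes, so their values are a description. Cluster 1 was cycling-like (324 cells, 21.3%), cluster 3 bulge stem cell-like (242 cells, 15.9%), cluster 6 upper hair follicle-like (150 cells, 9.87%), cluster 7 suprabasal keratinocyte-like (146 cells, 9.61%) and cluster 8 wound-edge keratinocyte-like (69 cells, 4.54%). A name is not a share of cells with those markers. Cluster 8 had Mmp9, Mmp13, Itga5, Plaur and Fscn1 raised, but not Krt6a, Krt6b or Krt16. Its wound-edge markers summed to 8637 CPM, against 51080 CPM in cluster 4 and 39720 CPM in cluster 5. Clusters 2 (279 cells, led by Tspear and Mob3b), 4 (157 cells, led by Mal and Ly6m) and 5 (152 cells, led by Flg and Tslp) stayed unnamed. Suprabasal markers were not particular to cluster 7. Of the 8, 3 were raised there and 5 in cluster 5, with summed levels of 21360 CPM in cluster 7 and 27780 CPM in cluster 5. The bulge-like cluster was also led by the interferon genes Ifit3, Ifit1 and Rsad2, and 80.3% of the Ifit3 UMIs of the 5 dpw pool came from 1 cell. Of the 24 cells at the unwounded bulge level 23 lay in it.

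Set against the unwounded pool, every cluster had lower bulge genes, but by different amounts. The median log2 fold of the bulge list ran from -6.11 in cluster 5 to -2.22 in the bulge-like cluster 3. In cluster 3 Krt15 stood at 1994 CPM, Lgr5 at 52.4 CPM and Cd34 at 20.2 CPM, all below the 14000, 553 and 523 CPM of unwounded cells. Outside it Krt15 was at most 254 CPM, in cluster 6. Sox9 was highest in cluster 6 at 136 CPM and in cluster 3 at 110 CPM, against 188 CPM in unwounded cells. The ATF4 list was above the unwounded level in each of the 8 clusters, with medians from 1.10 to 1.92, and Psat1 had a log2 fold from 2.12 to 2.96 across them. Asns ran from 49.1 CPM in cluster 3 to 92.1 CPM in cluster 1, all above the 18.2 CPM of unwounded cells. Mitotic genes were spread less evenly, from a median of 0.25 in cluster 5 to 3.96 in cluster 1. Krt14 was above its unwounded level of 4701 CPM in all 8, between 18620 CPM (cluster 3) and 38010 CPM (cluster 4), whereas Krt1 ran from 48.0 CPM in cluster 8 to 7729 CPM in cluster 5.

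**Figure D4:**
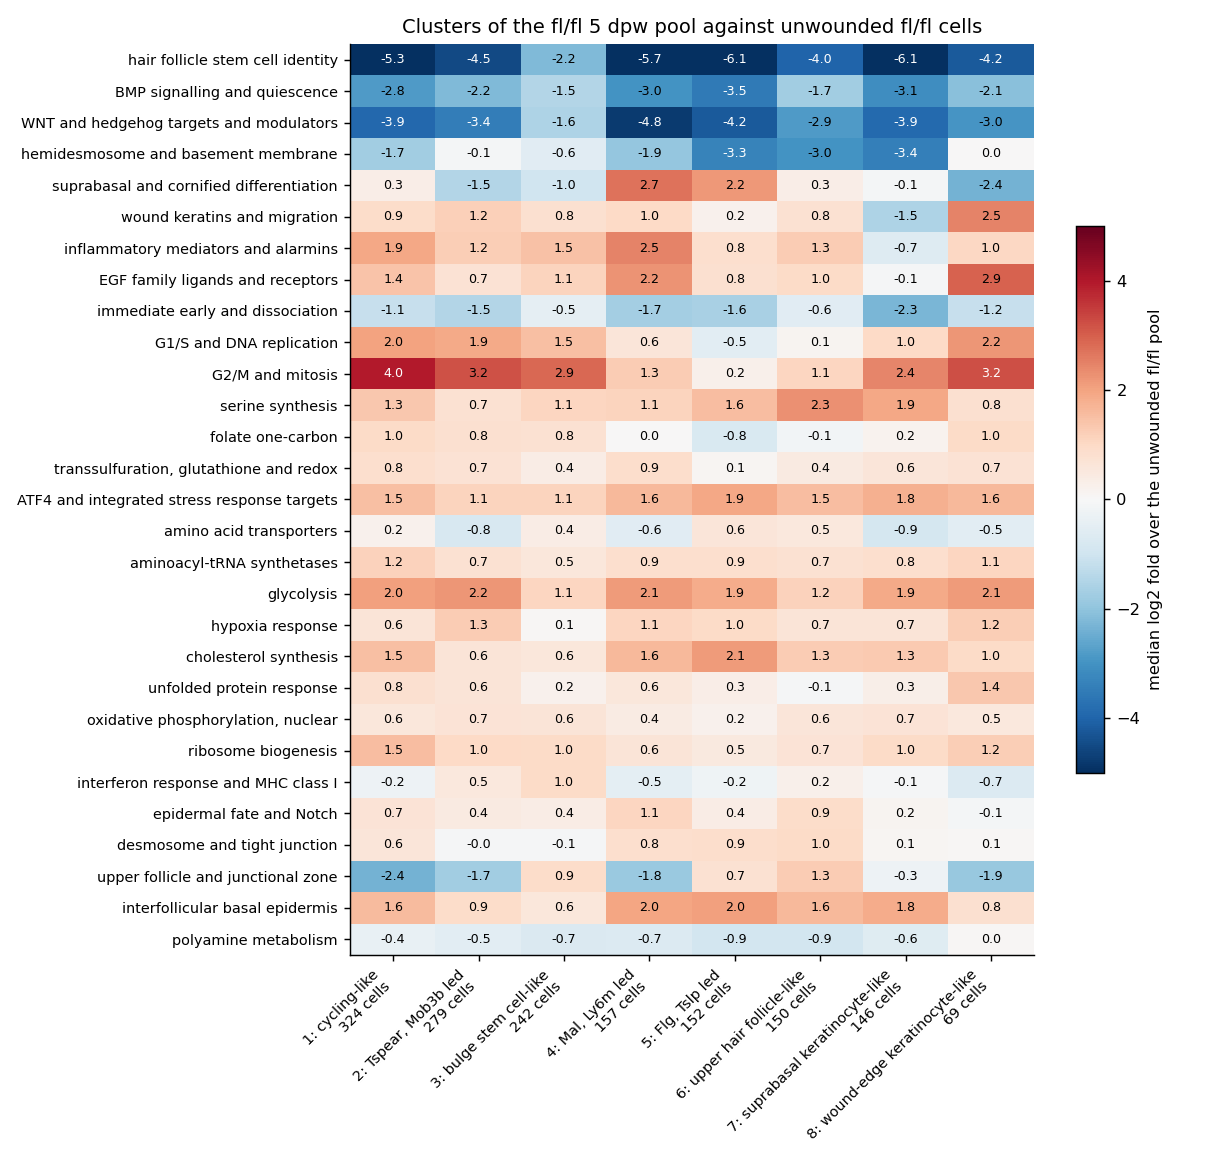
Rows are 29 gene lists, with the median log2 fold in each of the 8 clusters of the fl/fl 5 dpw pool (columns, with cell numbers) over the whole fl/fl unwounded pool, on a colour scale from -5 to 5 with the value printed. The bulge row is negative in all 8 columns (-6.11 to -2.22) and the ATF4 row positive in all 8 (1.10 to 1.92).

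The fl/fl pool at 3 dpw (531 cells) gives an intermediate stage that shares the unwounded pool, so its values are set side by side only. The summed bulge markers stood at 17430 CPM in unwounded, 918.5 CPM in 3 dpw and 325 CPM in 5 dpw cells. Postn, a matrix protein of the follicle, had 1273, 253.5 and 45.7 CPM over the same stages. Some genes had levels at 3 dpw close to those at 5 dpw, such as Krt6a (1017, 7165 and 7438 CPM) and Psat1 (14.3, 82.2 and 87.7 CPM). Others were further apart between 3 and 5 dpw: Krt1 had 246, 888 and 2269 CPM, Mt4 22.3, 51.3 and 252 CPM, and Ctsc 30.4, 144 and 357 CPM. Other genes were highest at 3 dpw, among them Mmp13 (1.86, 99.7 and 28.6 CPM), Il24 (13.0, 166 and 63.7 CPM) and Krt17 (416, 3538 and 1925 CPM). Robo1, a guidance receptor, had 13.4, 22.6 and 82.5 CPM. Genes in these sentences were chosen after their values were seen.

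The same contrast in Phgdh +/+ cells (1558 at 5 dpw, of which 343 were called female, and 267 unwounded, of which 0 were) was made for comparison. No test of a difference can be had with 1 pool per condition. Of 3129 genes, 8 (0.256%) had an fl/fl fold at least 2 times above the +/+ fold and 66 (2.11%) at least 2 times below. Without the deep unwounded cells the counts were 5 (0.159%) and 59 (1.88%) of 3136, and several of the largest single differences shrank or turned round, as given below. The bulge list had a median of -4.52 in fl/fl cells and -3.47 in +/+ cells. Without the deep unwounded cells it was -4.63 in fl/fl cells and -3.55 in +/+ cells, and -3.86 in +/+ cells when those called female were also left out. Taken gene by gene the gap was smaller. The median of the differences of 26 members was -0.71, and -0.64 without the deep cells, with cells called female kept. Lgr5 at 5 dpw had 6.30 CPM in fl/fl cells, against 21.2 CPM in +/+ cells and 14.9 CPM in +/+ cells not called female. Krt15 at 5 dpw had 254 CPM in fl/fl cells, against 569 and 431 CPM in those +/+ sets. The summed bulge markers of unwounded cells without the deep ones came to 18950 CPM (fl/fl) and 18400 CPM (+/+). For single cells the limit of 11200 CPM, taken from unwounded fl/fl cells, was used in both genotypes. Cells at that bulge level were 24 of 1519 at 5 dpw in fl/fl (1.58%, 1.01 to 2.34), 82 of 1558 in +/+ (5.26%, 4.21 to 6.49) and 41 of 1215 in +/+ cells not called female (3.37%, 2.43 to 4.55). The part of sex and of animals in that gap was not tested beyond these values.

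Fcgbp, a mucin-like secreted protein (ENSMUSG00000047730, chromosome 7 from 28071236 to 28120864), was among the 6 genes with the lowest difference between genotypes and, unlike the other 5, kept its size without the deep cells. It had 3.09 CPM at 5 dpw and 243 CPM unwounded in fl/fl cells, and 14.3 and 175.5 CPM in +/+ cells, so its log2 folds differed by -2.68, by -2.57 (-2.84 to -2.30) without the deep cells and by -1.64 without cells called female. Other bulge genes differed by less, with Lgr5 at -1.36 (-1.54 to -1.19), Krt15 at -1.26 (-1.30 to -1.23) and Cd34 at -0.90 (-1.12 to -0.67) without the deep cells, while Sox9 differed by 0.06 (-0.11 to 0.23). Leaving out cells called female as well narrowed the first 3. The log2 folds of Lgr5, Krt15 and Cd34 were then -5.74, -5.04 and -6.43 in +/+ cells, against -6.59, -5.90 and -7.08 in fl/fl cells. The other 5 lowest differences, in Asprv1 (-3.25), S100a9 (-3.16), S100a8 (-3.12), Sprr1a (-2.76) and Cnfn (-2.57), were between -0.63 and 0.57 without the deep cells. On the high side Ereg (1.69), F3 (1.56), Cdc20 (1.19), Robo1 (1.15) and Tubb6 (1.11) likewise came to between -0.38 and 0.66. Egln3, the oxygen-sensing prolyl hydroxylase, differed by 1.64 and by 0.91 without the deep cells. For the G2/M list the median of the members' differences was 0.38, and 0.81 without the deep cells. Few unwounded UMIs underlie that value, since 1 UMI is 0.47 CPM in the unwounded +/+ pool.

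For the ATF4 list the median of the members' differences between genotypes was 0.0049, and -0.08 without the deep cells. At 5 dpw Psat1 had 87.7 CPM (fl/fl) and 81.2 CPM (+/+), and its folds differed by -0.08 (-1.01 to 0.84) without the deep cells. Asns (76.7 CPM, against 68.2 CPM in +/+ cells, at 5 dpw) differed by 0.34 (-0.29 to 0.97) and Nupr1 by -0.09 (-0.66 to 0.48). These intervals cover counting error only and leave room for differences in either direction. Immediate early genes had a median of -1.19 in fl/fl and -0.27 in +/+ cells. The median of their members' differences was -0.81, and -0.85 without the deep cells. Jun, for one, had 775.5 CPM (fl/fl) and 825 CPM (+/+) at 5 dpw, and 2182 CPM (fl/fl) and 1474 CPM (+/+) in unwounded cells.

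**Figure D5:**
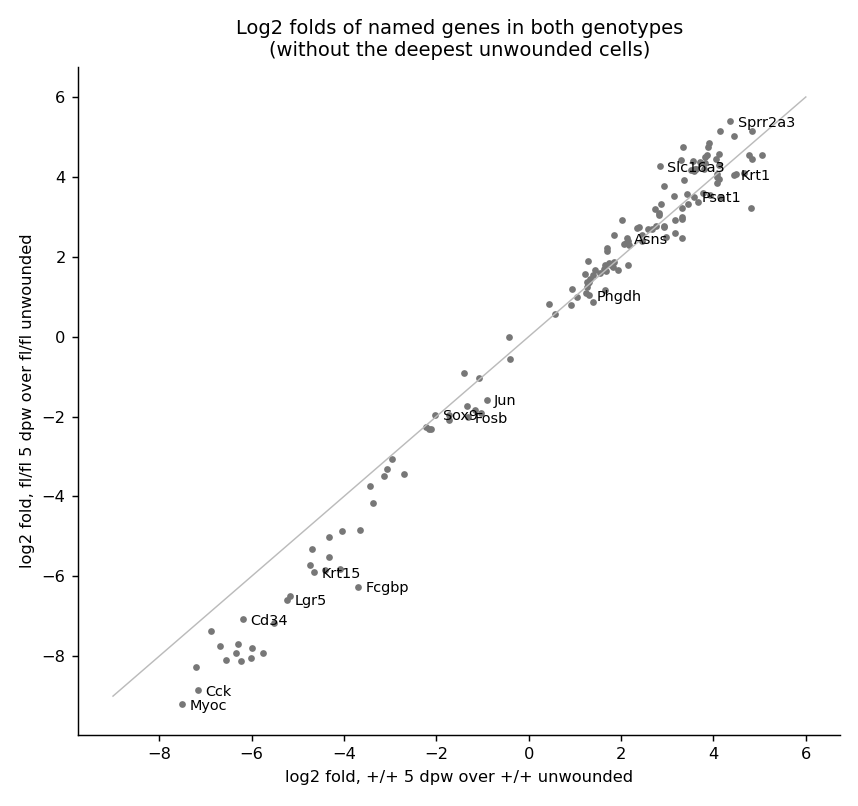
Log2 fold of 5 dpw over unwounded cells of the named genes in fl/fl cells (y axis) and +/+ cells (x axis), both without unwounded cells of at least 20000 UMIs. Cells called female in the +/+ pool were kept. The line marks equal folds, and bulge genes such as Fcgbp, Lgr5 and Krt15 lie below it (differences of -2.57, -1.36 and -1.26), while Sox9 (0.06) and Psat1 (-0.08) lie near it.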

How the data were processed

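The values are UMI counts per gene or hashtag and barcode, deposited as 1 matrix of 32285 genes, 6 hashtags and 2997303 barcodes. Per the submitters' processing notes, Cell Ranger 7.1.0 and Seurat 4.3.0 were used with mm10, with no parameters given in the sources used here, and the deposited counts are neither filtered to cells nor normalized. Per the labels, reads come from the 3′ end. The cell filter kept 6900 barcodes, dropping 30.1% of the 5 dpw and 30.7% of the unwounded fl/fl barcodes for mitochondrial content. Of the kept barcodes 251 had too few hashtag UMIs and 762 mixed hashtags, which takes out doublets of evenly mixed pools. Doublets whose top hashtag holds 70% or more, and those within a pool, can remain, and no doublet caller was run.

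UMIs were summed per pool and scaled to CPM. Folds carry exact conditional binomial intervals, levels exact Poisson and shares Clopper-Pearson intervals (scipy 1.17.1, numpy 2.4.6, Python 3.11.15). TMM factors came from edgeR 4.0.16 in R 4.3.3. The calculation was tested on simulated counts. Clusters came from scanpy 1.11.5 (2000 variable genes, 30 components, 15 neighbours, Leiden resolution 0.6) and took a name when at least 3 markers of at least 10 CPM were raised 2-fold, when 2 or more stood among the 10 leading genes or at least 2 in 3 of the list were raised, and when no other list had more among those 10. A cell was called female on 2 or more Xist UMIs and no more than 1 Y-linked UMI.

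Members, lists and rules were chosen with earlier results of these data known. Named genes were the 12 highest and 12 lowest folds among genes averaging 50 CPM or more, with 0 outside the interval (no mitochondrial, ribosomal, Gm, Rik, Xist, Tsix or Y-linked genes), up to 4 members per list averaging 20 CPM or more, by size of fold, 6 highest and 6 lowest genotype differences, and 16 always given: Phgdh, Psat1, Psph, Atf4, Asns, Ddit3, Cd34, Cd200, Ly6a, Sox9, Lgr5, Krt15, Krt14, Krt6a, Krt1 and Mki67. Other list members, and Mitf, were named after their values were seen. Alternatives were other cell, mitochondrial and hashtag limits, equal weight per cell, thinning, free RNA subtracted, TMM factors, other CPM limits, the 5 highest cells per gene left out and, added after the data were seen, leaving out cells with a Phgdh UMI, the 5% of cells with most UMIs, cells called female, and the deep unwounded cells. Some genes chosen by these rules are not reported here.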

Additional observations from a re-analysis of the deposited data

How the results depend on the processing

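The counts of 1041 genes at least 2-fold higher and 2095 at least 2-fold lower stayed within 1.5 times under 13 of 16 alternatives. They came to 2226 and 1116 with TMM factors, to 1776 and 4305 at a mean of at least 1 CPM, and to 433 and 629 at 50 CPM. Of the 29 list medians, interferon (0.02) and upper follicle (0.59) changed sign, to -0.26 each with at least 90% of hashtag UMIs. Many folds kept their sign but left their counting interval. Of the 147 named genes 104 did so with equal weight per cell, 109 with thinning and 143 with TMM factors. The printed intervals therefore do not cover the choice of processing. Among the 147 named genes, low folds changed sign for Phgdh (-0.18 at 5% mitochondrial UMIs, -0.39 with at least 50% of hashtag UMIs, -0.13 with at least 100 hashtag UMIs), S100a9 (-0.34) and Cnfn (-0.17), both at 5% mitochondrial UMIs. Larger folds did so for 2 genes: Krt77, at -4.28, stood at 0.45 without cells with a Phgdh UMI, 0.36 without the 5% of cells with most UMIs, 0.0027 without the deep unwounded cells and 1.02 without the 5 highest cells per gene, where Defb6 stood at 0.65. Among the 12 genotype differences S100a9 came to 0.54 with at least 90% of hashtag UMIs, 0.44 without the 5% of cells with most UMIs, 0.57 without the deep cells and 0.20 without the 5 highest cells. Ereg came to -2.18, -0.18, -0.38 and -1.23 under the same alternatives and to -2.85 with at least 100 hashtag UMIs. Cdc20 came to -1.34 with at least 90% of hashtag UMIs and to -0.04523 without the 5 highest cells. Robo1 came to -0.21 at 5% mitochondrial UMIs, -0.15 without the deep cells and -0.89 without the 5 highest cells. The cause was not tested beyond the removal of those cells. Depth limits the unwounded pool most, since 1 UMI is 0.013 CPM at 5 dpw and 0.21 CPM in unwounded cells. No paired analysis was possible because each condition is 1 pool, and no replicate could be left out for the same reason.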
